A study of Mus musculus with 16 samples.

Results

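The genes described here make cholesterol, encode or regulate SREBP2, the transcription factor that controls that pathway, or serve cholesterol transport, storage and receptor turnover. They are 28 listed mouse genes, and 26 of them had at least 1 probe set that names the gene alone, out of 19938 genes with such a probe set. Acat2, the cytosolic thiolase at the head of the pathway, and Soat2, which esterifies cholesterol, had none and are not described further. All 26 passed the filter on dim signal, so none was lost before testing. Ggps1 reached the filter level in only 8 of the 16 arrays and Lbr in 15, and the other 24 reached it in all 16. Idi1 and Fdft1 had a second probe set, whose signal differed from the first by at most 0.0819 and 0.120 log2 units in any array.

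Total RNA of mouse liver was hybridised to 16 Affymetrix whole-transcript arrays, 4 for each of 4 genotypes on strain 129. The genotypes were Rassf1a-/- (no Rassf1a, an isoform of a tumour suppressor gene), Sav1+/- (1 remaining copy of Sav1, which encodes an adaptor of the Hippo pathway kinases), Rassf1a-/- Sav1+/- (called the double genotype here) and wild type. The labels name no Cre driver, diet or treatment. The labels do not give sex, age, time of day or feeding state, and replicates are numbered by the order of the samples. Nothing states that the 4 samples of a genotype came from separate animals, so a p-value here speaks only of the spread among these samples.

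Cholesterol is built from acetyl-CoA through mevalonate, the isoprenoid farnesyl pyrophosphate, squalene and lanosterol. When sterols in the endoplasmic reticulum run low, the escort protein SCAP carries SREBP2 to the Golgi, where it is cut and released to switch on nearly every enzyme of the route, and when sterols are plentiful INSIG1 and INSIG2 hold SCAP back. In the liver the pathway also follows feeding and the time of day, and hepatocytes pass its product into lipoproteins, bile and bile acids.

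SREBP2 works on promoters together with the factor NF-Y, which binds the letters CCAAT. The 250 bases before the annotated start are printed for the 4 members on which the results turn, from RefSeq on GRCm38.p6, each read 5′ to 3′ on the gene's own strand. Capitals mark CCAAT on either strand (written ATTGG where it lies on the other one) and, in Hmgcs1, a match to the sterol element TCACNCCAC. The windows are chr13:119690101-119690350 (plus strand) for Hmgcs1, chr8:122443423-122443672 (minus strand) for Mvd, chr5:28071162-28071411 (plus strand) for Insig1, and chr1:121332590-121332839 and chr1:121328025-121328274 (both minus strand) for the upstream and the next of 3 listed starts of Insig2.
Hmgcs1: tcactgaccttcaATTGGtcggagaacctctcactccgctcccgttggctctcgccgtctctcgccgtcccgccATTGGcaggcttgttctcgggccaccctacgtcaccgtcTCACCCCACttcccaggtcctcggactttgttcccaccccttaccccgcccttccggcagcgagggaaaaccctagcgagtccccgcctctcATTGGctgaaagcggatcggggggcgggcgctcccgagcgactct
Mvd: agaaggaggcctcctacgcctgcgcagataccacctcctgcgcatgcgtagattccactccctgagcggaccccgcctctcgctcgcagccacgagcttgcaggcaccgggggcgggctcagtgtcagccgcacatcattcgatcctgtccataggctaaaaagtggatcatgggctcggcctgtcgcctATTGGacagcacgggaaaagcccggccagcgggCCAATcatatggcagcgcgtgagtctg
Insig1: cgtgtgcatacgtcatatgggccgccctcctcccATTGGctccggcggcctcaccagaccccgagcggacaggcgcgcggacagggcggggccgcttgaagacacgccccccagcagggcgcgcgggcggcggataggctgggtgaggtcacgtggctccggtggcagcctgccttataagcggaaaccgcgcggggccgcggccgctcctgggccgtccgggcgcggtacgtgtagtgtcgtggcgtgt
Insig2, upstream start: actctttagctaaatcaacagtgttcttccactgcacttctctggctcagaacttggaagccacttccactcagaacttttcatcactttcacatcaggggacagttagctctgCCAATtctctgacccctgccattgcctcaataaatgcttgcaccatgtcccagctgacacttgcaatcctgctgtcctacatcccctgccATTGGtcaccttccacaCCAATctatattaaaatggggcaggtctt
Insig2, next start: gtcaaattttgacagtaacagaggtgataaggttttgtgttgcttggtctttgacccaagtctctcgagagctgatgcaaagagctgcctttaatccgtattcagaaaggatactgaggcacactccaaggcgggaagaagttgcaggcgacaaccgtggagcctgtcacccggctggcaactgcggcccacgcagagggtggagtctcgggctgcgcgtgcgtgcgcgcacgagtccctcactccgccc
RefSeq windows were listed for 22 of the 26 members, 28 windows in all. A CCAAT on either strand lay in at least 1 window of 21 of the 22, Scap being the exception, and in 21 of the 28 windows, against 33.9% of all 32851 windows and 39.1% of the 10421 tested genes that had a window. The letters TCACNCCAC, searched on both strands, lay in the Hmgcs1 window, at position -137 from the start, and in none of the other 21 members, against 1.05% of all windows. The E-box CACGTG, which reads the same on both strands, lay in 5 of the 22 members (Dhcr7, Hsd17b7, Insig1, Sc5d and Scap), against 9.59% of tested genes. These matches describe letters and do not show that a factor was bound. The probe set of Insig2 does not tell its starts apart.

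Array medians lay between 7.198 and 7.509 on the log2 scale. Arrays of 1 genotype correlated at r of 0.925 to 0.975 across all 35556 probe sets, which are not independent replicates. In 5 arrays (replicate 2 of Rassf1a-/-, replicates 3 and 4 of Sav1+/-, replicates 1 and 2 of the double genotype) the mean of 3 Y-linked genes was at least 8.87 and Xist was at most 4.31, whereas in the other 11, wild type included, that mean was at most 4.17 and Xist at least 10.3. The first 5 are called the high-Y arrays. For members, values without them are given beside each named difference that they move by over 1.5 times. Sav1 had 7.60, 8.17, 7.38 and 7.40 in Sav1+/- livers, against 8.37 to 8.61 in wild type. Replicate 2 of Sav1+/- was thus nearest to wild type, and the part of this in the members' values was not tested. Rassf1, the gene of the isoform Rassf1a, averaged 7.20 in Rassf1a-/- livers, 7.56 in the double genotype and 7.44 in wild type, and was not called by limma. Of 11 measured clock genes, 2 rose and 6 fell in Rassf1a-/- livers against wild type and 3 rose and 6 fell in the double genotype, with 0 called in Sav1+/- livers (limma). Hepatocyte markers were present throughout (8 of 8 measured, mean log2 signal 13.1 to 13.5 in every array). No tested marker of Kupffer (7 of 7 listed), bile duct (1 of 6), stellate (6 of 6), endothelial (6 of 6) or lymphoid cells (2 of 6) was called in a genotype against wild type. Uncalled differences in the double genotype ran from -0.06 to 1.32 over the Kupffer markers and from -0.04 to 1.15 over the endothelial ones. In bulk liver, fewer cells of a type and less RNA per cell cannot be told apart.

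The enzymes of cholesterol synthesis moved up and down together from array to array inside a genotype. Among the 19 enzymes measured, Rassf1a-/- replicate 1 was the highest of its genotype for 13 and replicate 2 the lowest for 17. In Sav1+/- livers replicate 2 was the highest for 16 enzymes and replicate 3 the lowest for 17. In the double genotype replicate 2 was the highest for 11 and replicate 1 the lowest for 10, and in wild type replicate 4 was the highest for 18 and replicate 1 the lowest for 16. Relative to the mean of its genotype, the median enzyme stood at 0.24, -0.41, 0.16 and -0.01 log2 units in Rassf1a-/- replicates 1 to 4, at 0.23, 0.52, -0.46 and -0.31 in Sav1+/- replicates, at -0.14, 0.20, -0.11 and 0.05 in the double genotype and at -0.38, 0.22, -0.31 and 0.49 in wild type. The median of all 13152 tested genes lay between -0.15 and 0.09 in every array. A median over so many genes changes little where array medians are close, so it gives no scale for the swing of the enzymes. The shares of all genes for which the same arrays were highest or lowest are not given here. The swings of the enzymes were present in wild type too, where no array had high Y-linked signal.

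**Figure D1:**
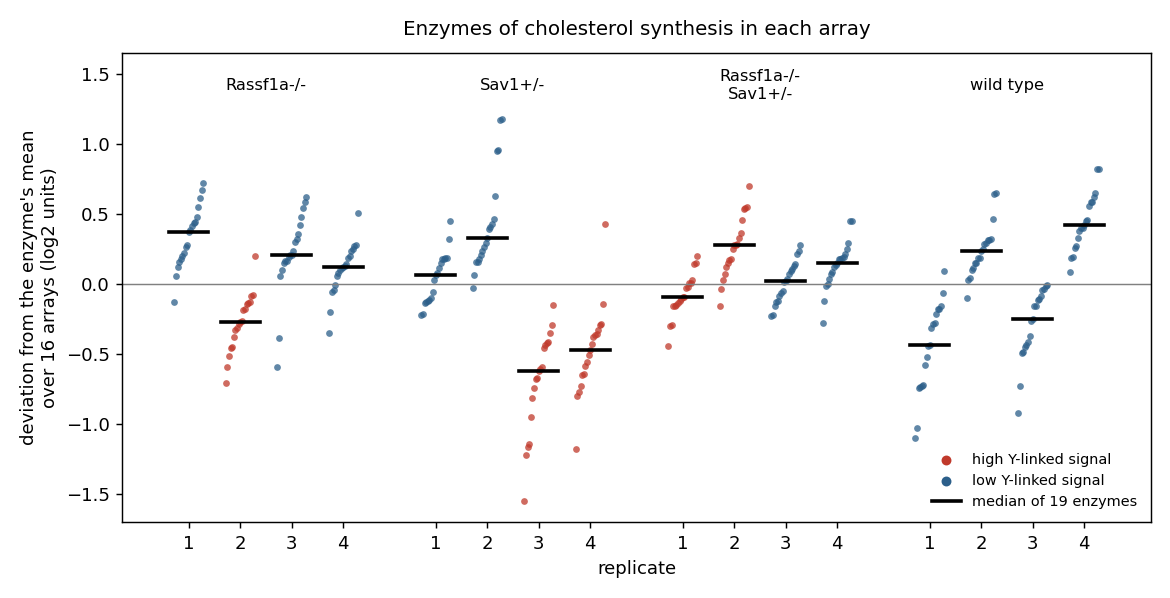
Each point is 1 of the 19 enzymes in 1 array, as its log2 signal minus the mean of that enzyme over all 16 arrays, with replicates 1 to 4 of each genotype along the horizontal axis, a black bar at the median of the enzymes and red for the 5 high-Y arrays. The medians run from -0.27 to 0.37 in Rassf1a-/- livers, from -0.62 to 0.33 in Sav1+/- livers, from -0.09 to 0.28 in the double genotype and from -0.44 to 0.42 in wild type, so every genotype spans 0.

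The size of the swing set how finely genotypes could be compared. From the lowest to the highest array of a genotype the median enzyme covered 0.69 log2 units in Rassf1a-/- livers, 0.99 in Sav1+/- livers, 0.44 in the double genotype and 0.83 in wild type, a 1.78-fold range among the 4 wild-type arrays. The residual SD within genotypes had a median of 0.392 over the 19 enzymes and of 0.261 over all tested genes. Hmgcs1, the synthase that commits acetyl-CoA to the pathway, was the most variable member (0.664, the 97.9th percentile of all genes), followed by Mvd (0.616), Lss (0.588), Pmvk (0.575) and Sqle (0.569). Scap (0.140) and Ebp (0.174) varied least. Having 4 arrays a genotype bounds how precise each value can be.

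No member passed the test against wild type in any genotype. With limma's adjusted p under 0.05 over 13152 genes as the call, 0 of 26 members were called in Rassf1a-/- livers (0.7% of all genes), 0 of 26 in Sav1+/- livers (0% of all genes) and 0 of 26 in the double genotype (0.821% of all genes). At an unadjusted p under 0.05 there was 1 member higher and 0 lower in Rassf1a-/- livers, where 10.4% of all genes were past that level, 1 higher and 2 lower in Sav1+/- livers (9.15%), and 2 higher and 0 lower in the double genotype (13.6%). Array weights, which give poorly fitting arrays less say, called 1 member in Rassf1a-/- livers (Insig2; 898 of all genes, against 92 without weights) and 2 in the double genotype (Insig2 and Npc1l1; 1231 of all genes, against 108), and every other setting tried, including the leaving out of each array, called 0 in all 3 comparisons. The comparisons share the wild-type arrays, so their values are set side by side only.

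The whole list is given beside all tested genes. Most members are enzymes that moved together from array to array. Counts of signs, here and in the later comparisons, are therefore not counts of independent genes. In Rassf1a-/- livers 17 of 26 members had a difference above 0, against 48.3% of all genes, with a median of 0.09 against -0.01 for all genes. In Sav1+/- livers 18 of 26 lay below 0, against 54.1% of all genes, with a median of -0.14 against -0.02. In the double genotype 16 of 26 lay above 0, against 58.7% of all genes, with a median of 0.06 against 0.05. The median in Sav1+/- livers turned to 0.17 without the 5 high-Y arrays, 2 of which belong to that genotype. Single arrays moved these medians as well. Leaving out 1 array gave -0.04 (without wild-type replicate 1) to 0.22 (without Rassf1a-/- replicate 2) in Rassf1a-/- livers, -0.34 (without Sav1+/- replicate 2) to -0.01 (without Sav1+/- replicate 3) in Sav1+/- livers, and -0.01 (without wild-type replicate 1) to 0.15 (without wild-type replicate 4) in the double genotype. The sign of the median in Rassf1a-/- livers and in the double genotype therefore rests on single arrays. Groups that did not overlap were seen for 1 member in each comparison, Insig2 higher in Rassf1a-/- livers (6.55% of all genes lay wholly higher), Insig1 lower in Sav1+/- livers (4.24% lay wholly lower) and Insig2 higher in the double genotype (6.28%).

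**Figure D2:**
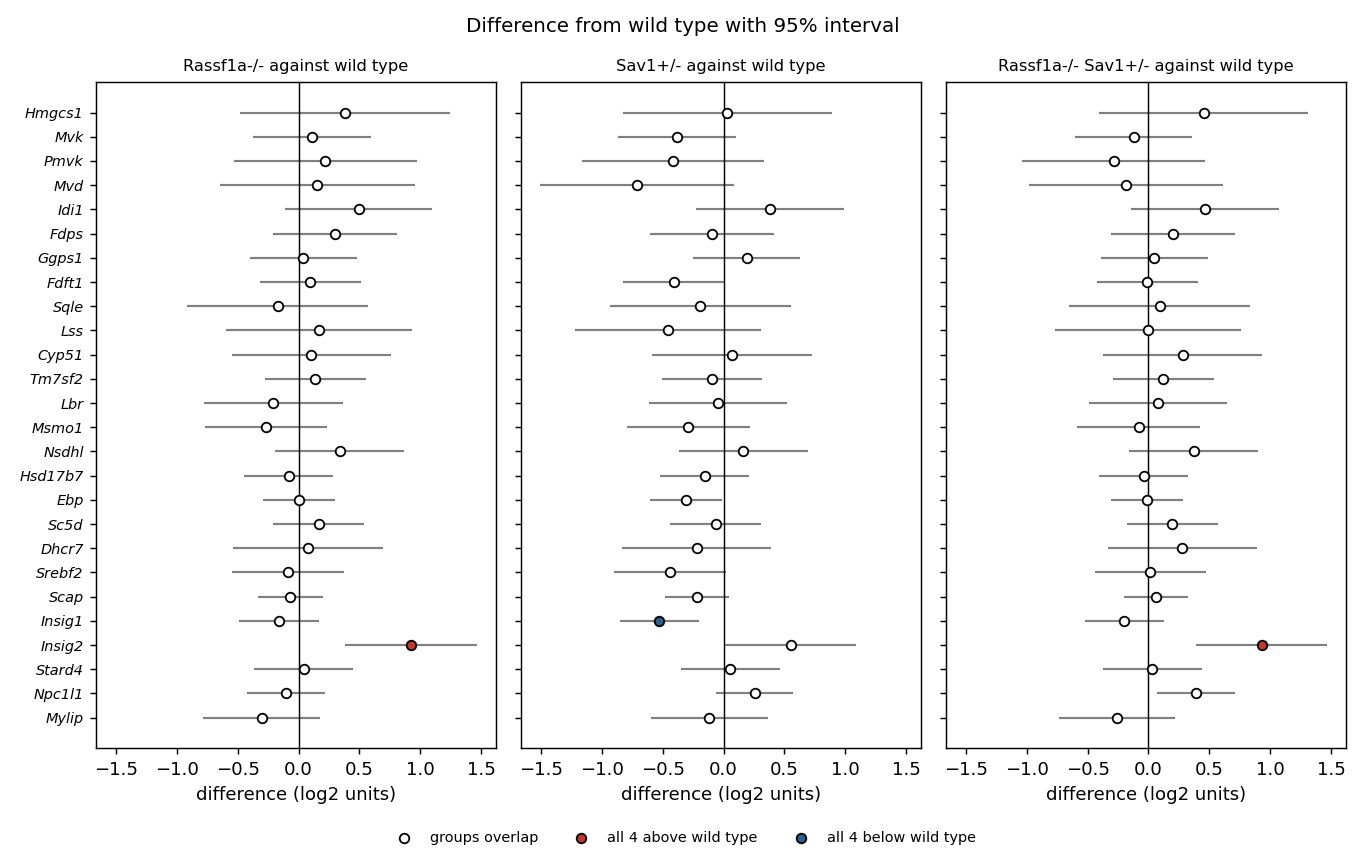
Difference from wild type on the log2 scale for the 26 members in pathway order, 1 panel for each altered genotype, with limma's 95% interval as a grey line (4 arrays a genotype). Filled points mark members whose 4 arrays all lay above or below the 4 of wild type: Insig2 at 0.92 in Rassf1a-/- livers, Insig1 at -0.53 in Sav1+/- livers and Insig2 at 0.93 in the double genotype.

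The first steps, from acetyl-CoA to farnesyl pyrophosphate, gave no call. All 7 measured enzymes of this stretch had a difference above 0 in Rassf1a-/- livers (median 0.22), 3 of 7 did in Sav1+/- livers (median -0.09) and 4 of 7 in the double genotype (median 0.05). Hmgcs1 (probe set 10412466) had log2 signals of 12.23, 10.97, 12.04 and 11.67 in Rassf1a-/- livers, 11.74, 12.51, 10.42 and 10.84 in Sav1+/- livers, 11.54, 12.11, 11.69 and 11.86 in the double genotype and 10.84, 11.75, 10.65 and 12.15 in wild type. The genotypes overlapped, and the highest and the lowest of the 16 values both came from Sav1+/- livers. The kinases Mvk and Pmvk, which load mevalonate with phosphate, averaged 11.04 ± 0.28 and 9.85 ± 0.31 in Rassf1a-/- livers, 10.54 ± 0.47 and 9.21 ± 0.81 in Sav1+/- livers, 10.80 ± 0.12 and 9.34 ± 0.15 in the double genotype and 10.93 ± 0.42 and 9.63 ± 0.74 in wild type (SD, n = 4 each).

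Mvd (probe set 10582310), the decarboxylase that yields isopentenyl pyrophosphate, had 10.61, 9.44, 10.48 and 10.40 in Rassf1a-/- livers, 10.08, 10.32, 8.35 and 8.72 in Sav1+/- livers, 9.46, 10.01, 9.76 and 10.35 in the double genotype and 9.74, 10.21, 9.86 and 10.52 in wild type. The 2 lowest values were the Sav1+/- arrays of high Y-linked signal, while the other 2 Sav1+/- arrays lay inside the wild-type range. The difference between Sav1+/- and wild-type livers was -0.71 (SE 0.38, adjusted p = 0.619), -0.37 without Sav1+/- replicate 3, and 0.12 without the 5 high-Y arrays (adjusted p = 0.973), so its direction rests on those arrays.

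Idi1 turns isopentenyl pyrophosphate into its reactive isomer. It had 12.23, 11.67, 12.15 and 11.97 in Rassf1a-/- livers, 12.17, 12.48, 11.43 and 11.49 in Sav1+/- livers, 12.05, 12.17, 11.76 and 11.93 in the double genotype and 10.75, 11.998, 11.12 and 12.18 in wild type. The wild-type arrays were split, 2 low and 2 at the level of the mutants. Rassf1a-/- livers differed from wild type by 0.49 (SE 0.29, adjusted p = 0.579), and the double genotype differed by 0.47 (SE 0.29, adjusted p = 0.514). Without wild-type replicate 1 these were 0.24 and 0.21. Fdps, which makes farnesyl pyrophosphate, had 12.93, 12.53, 13.02 and 12.94 in Rassf1a-/- livers, against 11.91, 12.98, 12.24 and 13.08 in wild type, where replicates 1 and 3 were again the low ones. The difference was 0.30 (SE 0.24, adjusted p = 0.671), and 0.09 without wild-type replicate 1, 0.20 without replicate 3 and 0.47 without replicate 4. Ggps1, which extends farnesyl pyrophosphate for protein prenylation and so leaves the sterol route, was near the filter level at 7.37 ± 0.38 in Rassf1a-/- livers, 7.52 ± 0.35 in Sav1+/- livers, 7.38 ± 0.32 in the double genotype and 7.33 ± 0.16 in wild type (SD, n = 4 each).

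Squalene and lanosterol are made by Fdft1, Sqle and Lss, and the means of all 3 lay below wild type in Sav1+/- livers without passing (median -0.41). For Sqle and Lss that direction rests on the 2 high-Y arrays of the genotype, while Fdft1 kept it without them. The 2 other Sav1+/- arrays averaged 11.57 for Sqle and 10.98 for Lss, above the wild-type means of 11.12 and 10.82, and 12.32 for Fdft1, against 12.40 in wild type. Fdft1, squalene synthase, averaged 12.50 ± 0.31 in Rassf1a-/- livers, 11.99 ± 0.38 in Sav1+/- livers, 12.39 ± 0.12 in the double genotype and 12.40 ± 0.28 in wild type (SD, n = 4 each). Its difference in Sav1+/- livers was -0.41 (SE 0.20, adjusted p = 0.547), and -0.08 without the high-Y arrays. Sqle, the epoxidase that is a second control point of the route, had 10.92, 12.23, 10.10 and 10.46 in Sav1+/- livers, against 10.88, 11.30, 10.68 and 11.61 in wild type. The Sav1+/- values lay on both sides of the wild-type range, and the 2 of low Y-linked signal (10.92 and 12.23) on both sides of the wild-type mean. Lss, which closes the sterol rings, averaged 10.99 ± 0.41 in Rassf1a-/- livers, 10.37 ± 0.73 in Sav1+/- livers, 10.82 ± 0.28 in the double genotype and 10.82 ± 0.78 in wild type.

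Of the 9 enzymes that turn lanosterol into cholesterol, 6 had a difference above 0 in Rassf1a-/- livers (median 0.08), 2 in Sav1+/- livers (median -0.09) and 6 in the double genotype (median 0.12), with 0 called by limma. Nsdhl, a dehydrogenase that helps to strip methyl groups from the ring, had 12.55, 11.97, 12.21 and 12.19 in Rassf1a-/- livers, 12.25, 12.57, 12.13 and 12.09 in the double genotype and 11.08, 12.30, 11.67 and 12.51 in wild type. The wild-type values enclosed nearly all of the others, and Rassf1a-/- livers differed from them by 0.34 (SE 0.25, adjusted p = 0.647) and the double genotype by 0.37 (SE 0.25, adjusted p = 0.558). Leaving out wild-type replicate 1 made these 0.07 and 0.10, leaving out wild-type replicate 4 made them 0.55 and 0.58, and the second was 0.22 without the high-Y arrays. Msmo1, the methyl sterol oxidase of the same step, averaged 11.86 ± 0.38 in Rassf1a-/- livers and 12.13 ± 0.40 in wild type (SD, n = 4 each), a difference of -0.27 (SE 0.24, adjusted p = 0.696). It was -0.10 without wild-type replicate 4 and -0.13 without Rassf1a-/- replicate 2, the high-Y array of that genotype. Ebp, the sterol isomerase, had 12.05, 12.26, 11.77 and 11.77 in Sav1+/- livers, against 12.13, 12.29, 12.19 and 12.46 in wild type. Its difference was -0.31 (SE 0.14, adjusted p = 0.532), and -0.11 without the high-Y arrays, with 1 Sav1+/- array inside the wild-type range.

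For the remaining enzymes of this stretch other than Lbr, the genotype means lay within 1 wild-type SD of the wild-type mean. Cyp51, the lanosterol demethylase, averaged 10.59 ± 0.40 in Rassf1a-/- livers, 10.55 ± 0.71 in Sav1+/- livers, 10.76 ± 0.27 in the double genotype and 10.48 ± 0.50 in wild type (SD, n = 4 each). Dhcr7, the reductase of the last step, averaged 11.43 ± 0.33, 11.13 ± 0.56 and 11.63 ± 0.34 in the same mutants and 11.35 ± 0.56 in wild type. The desaturase Sc5d averaged between 12.87 in Sav1+/- livers and 13.13 in the double genotype, against 12.94 in wild type, and the reductase Tm7sf2 between 12.05 in Sav1+/- livers and 12.29 in Rassf1a-/- livers, against 12.15. Hsd17b7, the ketone reductase of the demethylating complex, averaged 11.34 to 11.46 in the mutants and 11.50 in wild type. Lbr, a sterol reductase that also anchors chromatin at the nuclear envelope, had 7.77, 9.16, 7.31 and 7.70 in Sav1+/- livers, against 8.08, 7.89, 7.97 and 8.17 in wild type, with replicate 2 of Sav1+/- far above and the other 3 below every wild-type array.

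Insig2 had the smallest p of the 26 members in Rassf1a-/- livers and in the double genotype, without passing in either. Insig2 (probe set 10357280), one of the anchors that hold SCAP in the endoplasmic reticulum, had log2 signals of 12.03, 12.29, 11.62 and 11.72 in Rassf1a-/- livers, 10.95, 11.43, 11.83 and 11.96 in Sav1+/- livers, 12.14, 12.45, 11.50 and 11.59 in the double genotype and 11.45, 11.13, 10.65 and 10.74 in wild type. All 8 arrays of the Rassf1a-/- genotypes lay above all 4 wild-type arrays, while Sav1+/- arrays overlapped with both. Relative to wild type, Insig2 stood at 0.92 in Rassf1a-/- livers (1.90-fold, 95% interval 0.38 to 1.46, SE 0.26, adjusted p = 0.137), 0.55 in Sav1+/- livers (SE 0.26, adjusted p = 0.539) and 0.93 in double-genotype livers (95% interval 0.39 to 1.47, SE 0.26, adjusted p = 0.102). None passed, and over the 16 fits that each left out 1 array the adjusted p ran from 0.0734 to 0.436 in Rassf1a-/- livers and from 0.0531 to 0.385 in the double genotype. With array weights it was 0.0131 and 0.0101.

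Insig2 also followed the Y-linked signal and lay in livers whose clock genes differed. In each mutant genotype the high-Y arrays were the highest for Insig2. With those 5 left out, Insig2 stood 0.80 from wild type in Rassf1a-/- livers (adjusted p = 0.196), 0.20 in Sav1+/- livers (adjusted p = 0.961) and 0.55 in double-genotype livers (2 arrays left, adjusted p = 0.934). Arntl, which encodes the clock activator BMAL1, averaged 10.08 ± 0.13 in Rassf1a-/- livers, 6.71 ± 0.69 in Sav1+/- livers, 9.72 ± 0.40 in the double genotype and 6.71 ± 0.73 in wild type (SD, n = 4 each). Dbp, a clock output factor, averaged 8.05 ± 0.59, 11.19 ± 0.21 and 9.02 ± 1.29 in the same mutants and 11.22 ± 0.49 in wild type. Insig2 is known in mouse liver as a gene whose transcript cycles over the day. Time of sampling is not given and cannot be told apart from genotype here, and the part of the clock difference in the Insig2 values was not tested.

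Insig1 (probe set 10520362), the other anchor and itself a strong SREBP2 target, had 12.81, 12.48, 12.62 and 12.91 in Rassf1a-/- livers, 12.59, 12.45, 12.11 and 12.21 in Sav1+/- livers, 12.47, 12.64, 12.72 and 12.84 in the double genotype and 12.64, 12.76, 12.87 and 13.21 in wild type. The 4 Sav1+/- arrays lay below all 4 wild-type arrays, with a narrow gap between 12.59 in Sav1+/- replicate 1 and 12.64 in wild-type replicate 1. The difference in Sav1+/- livers was -0.53 (95% interval -0.85 to -0.20, SE 0.15, adjusted p = 0.278), and -0.35 without the high-Y arrays (adjusted p = 0.792). In the double genotype it was -0.20 (SE 0.15, adjusted p = 0.628), and -0.09 without the high-Y arrays or without wild-type replicate 4. In Rassf1a-/- livers Insig1 averaged 12.71, against 12.87 in wild type. Leaving out 1 array gave differences of -0.24 to -0.05 there (limma, adjusted p = 0.641 to 0.948). Insig1 and Insig2 thus had differences of opposite sign in every mutant genotype, none of them called in the main fit.

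Srebf2 (probe set 10425695), the gene of SREBP2 itself, had 10.85, 10.06, 10.37 and 10.68 in Rassf1a-/- livers, 10.15, 10.84, 9.77 and 9.81 in Sav1+/- livers, 10.37, 10.73, 10.55 and 10.73 in the double genotype and 10.73, 10.48, 10.37 and 10.74 in wild type. Low values were seen in 3 Sav1+/- arrays and in replicate 2 of Rassf1a-/-, and the rest were close together. The difference in Sav1+/- livers was -0.44 (SE 0.22, adjusted p = 0.566), -0.67 without Sav1+/- replicate 2 and -0.09 without the high-Y arrays. Scap, the escort, was the steadiest member and averaged 12.02 ± 0.10 in Rassf1a-/- livers, 11.87 ± 0.21 in Sav1+/- livers, 12.15 ± 0.06 in the double genotype and 12.09 ± 0.14 in wild type (SD, n = 4 each).

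**Figure D3:**
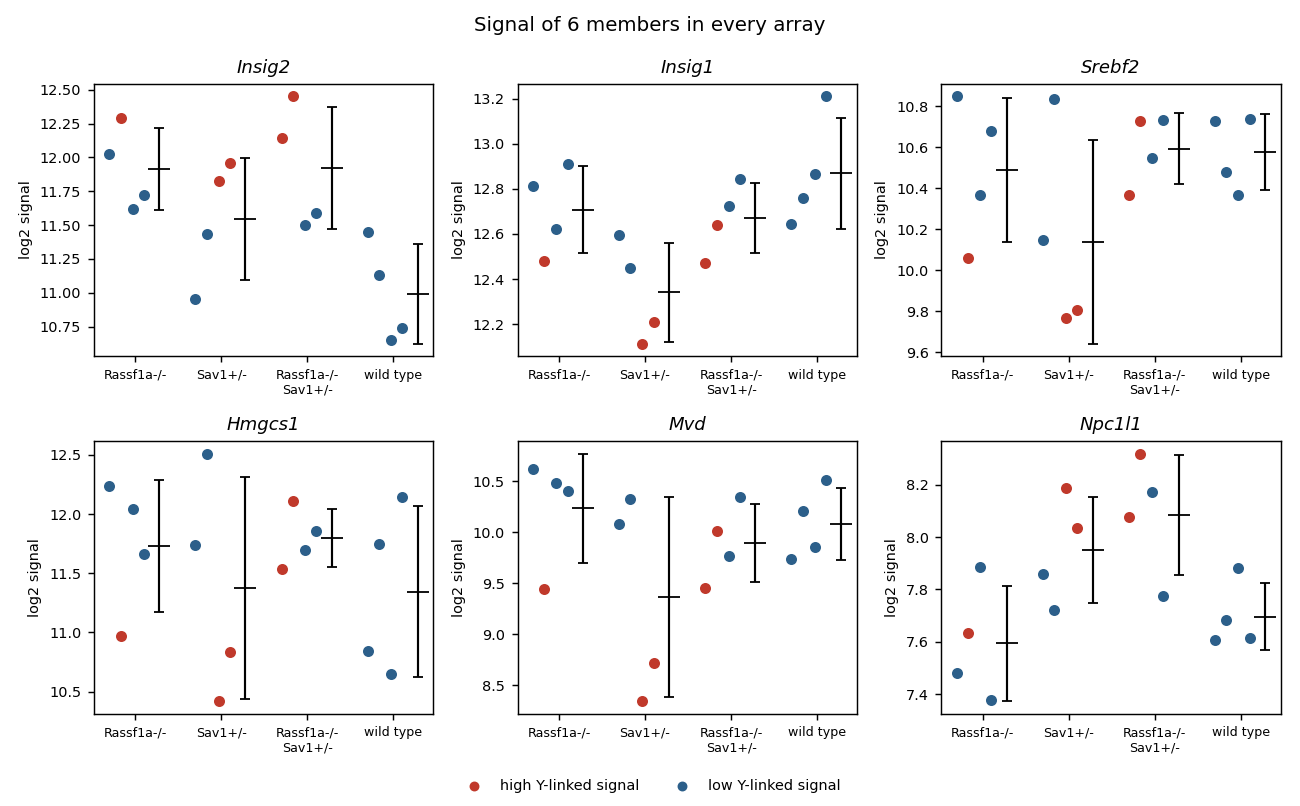
Log2 signal of 6 members in each of the 16 arrays by genotype, red where Y-linked signal was high, with the mean and SD of the 4 arrays in black beside the points and a vertical axis of its own for each gene. All Rassf1a-/- and double-genotype points of Insig2 lie above wild type, and the 2 red Sav1+/- points of Mvd, at 8.35 and 8.72, are the lowest of its 16.

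Genes that move or store cholesterol were measured in 3 of 4 cases. Npc1l1 (probe set 10384102), which takes cholesterol up from bile and gut, had 7.48, 7.63, 7.89 and 7.38 in Rassf1a-/- livers, 7.86, 7.72, 8.19 and 8.03 in Sav1+/- livers, 8.08, 8.32, 8.17 and 7.77 in the double genotype and 7.61, 7.68, 7.88 and 7.61 in wild type. Its signal was low, between 7.38 and 8.32 where the filter level of the arrays was 7.16 to 7.44. In the double genotype 3 of 4 arrays lay above every wild-type array. The difference was 0.39 (SE 0.15, adjusted p = 0.266, and 0.0394 with array weights). Mylip, a ubiquitin ligase that marks lipoprotein receptors for breakdown, had 9.13, 8.92, 8.54 and 9.32 in Rassf1a-/- livers, 9.49, 8.58, 8.89 and 9.10 in the double genotype and 9.74, 8.85, 9.37 and 9.15 in wild type. The groups overlapped, with Rassf1a-/- livers at -0.30 from wild type (SE 0.23, adjusted p = 0.651) and the double genotype at -0.26 (SE 0.23, adjusted p = 0.682). Leaving out 1 array gave -0.45 to -0.15 in Rassf1a-/- livers, the smallest without wild-type replicate 1, and -0.42 (without replicate 1 of the double genotype) to -0.11 (without its replicate 2 or wild-type replicate 1) in the double genotype. Stard4, a sterol carrier in the cytosol, averaged 10.34 ± 0.15 in Rassf1a-/- livers, 10.36 ± 0.42 in Sav1+/- livers, 10.33 ± 0.14 in the double genotype and 10.30 ± 0.32 in wild type (SD, n = 4 each).

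Adding the loss of 1 Sav1 copy to Rassf1a-/- livers gave 0 of 26 calls (0.0076% of all genes), with 1 member at an unadjusted p under 0.05 (14.7% of all genes). Npc1l1 differed most in the double genotype against Rassf1a-/- livers, by 0.49 (SE 0.15, adjusted p = 0.153, and 0.00750 with array weights). Pmvk followed at -0.50 (SE 0.36, adjusted p = 0.503). The double genotype against Sav1+/- livers also gave 0 of 26 (0.836% of all genes), with 3 members higher at an unadjusted p under 0.05 (15% of all genes, either way) and 1 call, Srebf2, when Sav1+/- replicate 2 was left out. In that comparison 23 of 26 members lay above 0, against 62.8% of all genes, with a median of 0.26 against 0.08. Scap differed by 0.28 (SE 0.12, adjusted p = 0.300) and Ebp by 0.30 (SE 0.14, adjusted p = 0.328), which was 0.16 without the high-Y arrays. The median was -0.11 without the 5 high-Y arrays, 0.11 without Sav1+/- replicate 3 and 0.39 without Sav1+/- replicate 2.

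Averaged over both Sav1 states, the Rassf1a-/- genotypes had 0 of 26 members called (2.23% of all genes), with 1 at an unadjusted p under 0.05 (15.3%), and 22 of 26 above 0, against 55.1% of all genes. The median was 0.18 against 0.03 for all genes, 0.11 without Sav1+/- replicate 3, 0.28 without Sav1+/- replicate 2 and 0.08 without the high-Y arrays. Insig2 was again first at 0.65 (95% interval 0.27 to 1.03, SE 0.18, adjusted p = 0.0702). Its call turned with the setting: the adjusted p was 0.0281 with Y-linked signal in the model, 0.0418 with array weights, 0.0485 under the stricter filter and 0.0499 without Sav1+/- replicate 4, but 0.192 without the high-Y arrays. Fdft1 followed at 0.25 (SE 0.14, adjusted p = 0.416).

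Averaged over both Rassf1a states, the loss of 1 Sav1 copy gave 0 of 26 calls (0.0228% of all genes), with 2 members at an unadjusted p under 0.05 (14.8%), and a median of -0.04 against 0.02 for all genes, which ran from -0.12 without Sav1+/- replicate 2 to 0.01 without wild-type replicate 4. Npc1l1 differed by 0.37 (SE 0.11, adjusted p = 0.141) and Insig1 by -0.28 (SE 0.11, adjusted p = 0.242), and these were 0.24 and -0.17 without the high-Y arrays. Array weights, which raised the calls over all genes to 1517, against 3 without them, called 5 members, Fdft1, Insig1, Mvd and Mvk as lower and Npc1l1 as higher. The interaction, which asks whether the effect of one genotype depends on the other, gave 0 of 26 (0% of all genes), with 1 member at an unadjusted p under 0.05 (9.4%). Insig1 had 0.49 (SE 0.22, adjusted p = 0.501) and Scap 0.35 (SE 0.18, adjusted p = 0.561), which was 0.22 without the high-Y arrays.

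The clearest differences among the members ran with the Y-linked signal inside genotypes. Arrays of high signal were set against arrays of low signal with genotype in the model, so that the arrays were grouped by their measured values and not by the labels. The difference itself comes from the 3 mutant genotypes, and the wild-type arrays, all of low signal, enter only the estimate of the spread. Mvd fell by 1.01 on the log2 scale (2.02-fold, 95% interval -1.46 to -0.57, SE 0.21, adjusted p = 0.00619), and Insig2 rose by 0.67 (1.59-fold, 95% interval 0.35 to 0.98, SE 0.15, adjusted p = 0.0114). These were 2 calls among 26 members, against 4.73% of all genes, of which 1.81% were higher and 2.92% lower. Both held in all 16 fits that left out 1 array and in all 8 other settings. The fits without a wild-type array and the changes of filter could not move the differences, which stayed at -1.01 and 0.67. They altered only the spread or the adjustment. In addition 11 members were lower at an unadjusted p under 0.05 without passing (13.8% of all genes were past that level), among them Fdft1, Srebf2, Mvk, Hmgcs1, Insig1 and Sqle.

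All 19 enzymes had a difference below 0 in arrays of high Y-linked signal, against 49.4% of all genes, though that of Ggps1 was 0.00 when rounded. Because the enzymes moved together within arrays, these are not 19 independent observations. Their median was -0.39, and that of the 26 members was -0.36, against 0.00 for all genes. Fdft1, Sqle and Lss had a median of -0.66, the first steps one of -0.47 and the enzymes after lanosterol one of -0.35. Ggps1, the enzyme of the prenylation branch, is named here after its values were seen, with 7.60 in the array of high signal and a mean of 7.29 in the others of Rassf1a-/- livers, 7.54 and 7.498 in Sav1+/- livers and 7.24 and 7.51 in the double genotype. Insig2 and Npc1l1 were the members with a difference above 0. Markers of some other cells lay below 0 as well in this comparison. These were all 6 stellate markers (-0.45 to -0.12, median -0.18), all 6 endothelial markers (-0.46 to -0.06, median -0.19) and both measured lymphocyte markers (-0.41 and -0.13). The 7 Kupffer markers ran both ways, from -0.50 to 1.08 (median -0.15), and the 1 measured bile duct marker stood at -0.004. The 8 hepatocyte markers had a median of 0.03. No marker was called, and the part of these cells in the enzymes' difference was not tested. Y-linked signal and Xist separated the arrays without overlap, the labels do not give litter, age or time of sampling, and the parts of these factors cannot be told apart.

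**Figure D4:**
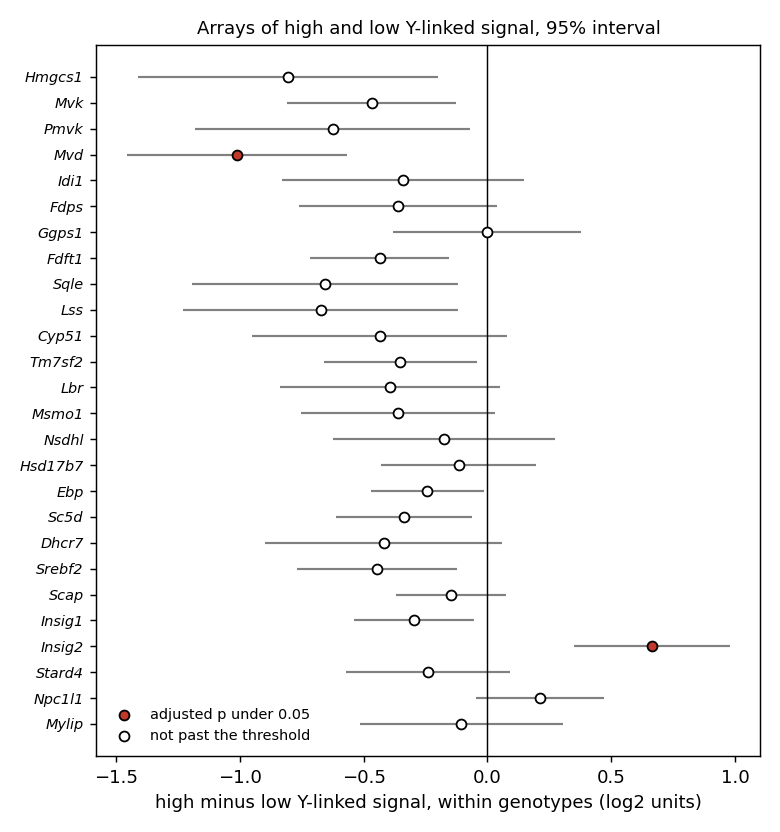
Difference between arrays of high and of low Y-linked signal within genotypes (5 high arrays, and 11 low ones with wild type included), on the log2 scale for the 26 members in pathway order, with limma's 95% interval as a grey line. Mvd at -1.01 and Insig2 at 0.67 are filled because their adjusted p was under 0.05, and every enzyme from Hmgcs1 to Dhcr7 lies on or left of 0.

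The difference was not alike in the 3 genotypes that held both kinds of array. In Sav1+/- livers the 2 arrays of high signal lay below the 2 of low signal for 18 of 19 enzymes (10.4% of all genes lay so), with a median difference of -0.81. In Rassf1a-/- livers the 1 array of high signal lay below the other 3 for 17 of 19 (32.6% of all genes), with a median of -0.54. In the double genotype 0 of 19 lay wholly below (17.2% of all genes) and 2 wholly above (13.1%), with a median of 0.05. Wild type, with no array of high signal, was also split. Its replicates 1 and 3 each lay below their genotype mean for 18 of 19 enzymes. Replicates 2 and 4 lay above it for 18 and 19. A split of most enzymes was thus not confined to genotypes with both kinds of array. Mvd averaged 8.53 in high and 10.20 in low arrays of Sav1+/- livers, 9.44 and 10.497 in Rassf1a-/- livers and 9.73 and 10.06 in the double genotype. Hmgcs1 averaged 10.63 and 12.13 in Sav1+/- livers, 10.97 and 11.98 in Rassf1a-/- livers and 11.82 and 11.78 in the double genotype. Insig2 ran the same way in all 3, at 11.90 and 11.19 in Sav1+/- livers, 12.29 and 11.79 in Rassf1a-/- livers and 12.30 and 11.55 in the double genotype.

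A test of the difference between Sav1+/- livers and the double genotype in this respect, added after the values were seen, called 0 of 13152 genes by limma, with 527 at an unadjusted p under 0.05. Mvd had the smallest p of the members (-1.35, SE 0.40, unadjusted p = 0.00404, adjusted p = 0.9999). The unequal behaviour of the genotypes is therefore a description of these arrays. The array-wide swing of the enzymes within wild type, where Y-linked signal was low throughout, was as wide as 0.83 for the median enzyme, and its part in the difference was not tested.

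Around the pathway, 47 other genes were measured from lists of SREBP processing, other SREBP targets, sterol efflux, lysosomal and ester handling, and the isoprenoid branches. Against wild type 0 of 47 were called in Rassf1a-/- livers, with 3 higher and 10 lower at an unadjusted p under 0.05 (10.4% of all genes, either way). Sav1+/- livers also had 0 of 47, with 0 higher and 7 lower (9.15%), and so did the double genotype, with 2 higher and 3 lower (13.6%). Nearest in Rassf1a-/- livers was Rnf145, a ubiquitin ligase of the endoplasmic reticulum that acts on SCAP in mouse liver, at 8.41 ± 0.33 against 9.56 ± 0.49 in wild type (SD, n = 4 each), a difference of -1.16 (SE 0.28, adjusted p = 0.0741). Abcg5, part of the transporter that exports sterols into bile, had -0.74 (SE 0.18, adjusted p = 0.0761), and Srebf1, the gene of the fatty acid regulator SREBP1, had -0.76 (SE 0.20, adjusted p = 0.107). All 3 had 4 arrays below the 4 of wild type, as did 4.32% of all genes.

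In Sav1+/- livers the nearest were Rabggta, a prenyl transferase for Rab proteins, at -0.52 (adjusted p = 0.217), Rce1, a protease of prenylated proteins, at -0.47, and Lcat, which esterifies cholesterol in plasma, at -0.40. In the double genotype they were Stard5, a sterol carrier, at -0.42 (adjusted p = 0.142), Syvn1, a ligase of protein quality control, at 0.76, and Pdss2, which builds the tail of coenzyme Q, at 0.38. Averaged over Sav1 states, 2 of 47 passed in the Rassf1a-/- genotypes, against 2.23% of all genes. Abcg5 fell, with means of 10.68 ± 0.20 in Rassf1a-/- and 11.07 ± 0.08 in double-genotype livers against 11.54 ± 0.34 in Sav1+/- and 11.41 ± 0.33 in wild-type livers, a difference of -0.60 (SE 0.13, adjusted p = 0.0162). It held in all 16 fits that left out 1 array and missed the threshold without the high-Y arrays, at a difference of -0.64 from fewer arrays (adjusted p = 0.162). Pdss2 rose by 0.49 (SE 0.12, adjusted p = 0.0332), a call that held in 7 of those 16 fits. It missed the threshold with no filter (adjusted p = 0.0677) and, at a difference of 0.51, without the high-Y arrays (adjusted p = 0.162).

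Other SREBP targets made up 10 of the 47, mostly genes of fatty acid synthesis and acetate use. All 10 had a difference below 0 in Sav1+/- livers (median -0.19), against 54.1% of all genes, and in arrays of high Y-linked signal (median -0.53), against 49.4%. In Rassf1a-/- livers 6 of 10 lay above 0 (median 0.12), while 3 were lower at an unadjusted p under 0.05 and 0 higher. The double genotype had 5 of 10 above 0 (median -0.01). With the Y-linked signal 4 of the 47 passed, against 4.73% of all genes. Npc2, the lysosomal cholesterol carrier, fell (-0.45, SE 0.11, adjusted p = 0.0228), as did Pnpla3, a lipase of lipid droplets (-0.86, SE 0.23, adjusted p = 0.0344). Abcg8, the partner of Abcg5, rose by 0.58 (SE 0.15, adjusted p = 0.0262) and Syvn1 by 0.79 (SE 0.21, adjusted p = 0.0318). Leaving out 1 array kept these calls in 13, 8, 10 and 9 of 16 fits. Pnpla3 was near the filter level, which it reached in only 8 of the 16 arrays. With no filter, Pnpla3 and Syvn1 missed the threshold (limma, adjusted p = 0.0612 and 0.0570).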

How the data were processed

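The deposited values are log2 signals per probe set. The submitters' processing notes name Affymetrix Expression Console as the tool, and no label used here states its version, background correction, summarisation or normalization. Probe sets were named from the platform annotation, and only those with 1 gene were used (21789 of 35556). A gene with several was represented by the one of highest mean signal. Genes were kept where at least 4 arrays reached the 40th percentile of that array (7.16 to 7.44). The 4 genotypes were fitted in 1 limma model (limma 3.58.1, R 4.3.3; 12 residual degrees of freedom) on the log2 scale, with Benjamini-Hochberg adjustment over 13152 genes in each of 9 comparisons and a threshold of 0.05. Differences are on the log2 scale. Arrays of high Y-linked signal were compared within genotypes in a model with genotype. Full statistics are given for the 6 members of smallest p against wild type in each genotype, the 2 of smallest p in other comparisons, and every member or companion called. For the 3 companions of smallest p against wild type, the difference is given, in some cases without its SE or adjusted p. Members and lists were chosen with earlier results of these data known. The procedure was tested on simulated data. Promoter windows came from RefSeq (GRCm38.p6). Figures used matplotlib 3.10.9.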

Additional observations from a re-analysis of the deposited data

Results flagged for a closer look

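In 5 of 104 groups of 4 arrays, 1 array stood apart from the other 3 by Dixon's test, and chance gives about 1 in 20. Fdps was low in Rassf1a-/- replicate 2, at 12.53 with the nearest array at 12.93. Ggps1 was low in Rassf1a-/- replicate 3, at 6.80 with the nearest at 7.52, and high in replicate 4 of Rassf1a-/- Sav1+/-, at 7.85 with the nearest at 7.24. Scap was high in Sav1+/- replicate 2, at 12.19 with the nearest at 11.79, and so was Mylip, at 9.60 with the nearest at 9.05. Rassf1a-/- replicate 2 is 1 of the 5 arrays of high Y-linked signal, whose part in the value was not tested.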

How the results depend on the processing

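The alternatives were no filter, a stricter filter (60th percentile, which keeps 23 members), averaging over probe sets, quantile normalization, median centring, array weights, a trended and robust fit, only the genotypes compared, the Y-linked mean as covariate, the 5 high-Y arrays left out, and each array left out. A filter level over all probe sets and a Y-linked difference for each genotype were added after seeing the data. Of the values for named members, 784 kept direction and side of the threshold, 10 passed it anew and 1 reversed, and the cause was not tested. Mvd reversed to 0.12 in Sav1+/- against wild-type livers without the high-Y arrays. With array weights the members called were 1 in Rassf1a-/- against wild type, 2 in the double genotype against wild type, 1 in the double genotype against Rassf1a-/-, 1 in the average over Sav1 states and 5 in the average over Rassf1a states, against 0 in each. The average over Sav1 states also gave 1 under the stricter filter and with the Y-linked covariate. Leaving out each array gave 0 to 1 members in that average and in the double genotype against Sav1+/-. Without the high-Y arrays the members' median was 0.17 in Sav1+/- against wild type, -0.11 in the double genotype against Sav1+/- and -0.25 in the interaction. Over all genes the calls in the double genotype against wild type were 108, against 56 without a filter and 176 under the stricter one. No paired analysis was possible because replicate numbers are absent from the labels.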
